A study of Homo sapiens with 2 samples.

Results

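Translation initiation factors are the proteins that bring an mRNA, the initiator tRNA and both ribosomal subunits together at a start codon. Here they were taken as all genes whose only annotated symbol begins with EIF1, EIF2, EIF3, EIF4, EIF5 or EIF6, without the eIF2 kinases (EIF2AK) and the older names of the Argonaute genes (EIF2C). These were 47 genes with 120 probe sets of 19775 genes with 41097 probe sets. Gene expression was measured in the established Hodgkin lymphoma cell line L-428 with 1 Affymetrix array per condition. The control cells carried the empty vector pcDNA6.2-GW/EmGFP-miR-neg and the knock-down cells the vector pcDNA6.2-GW/EmGFP-miR-PRAME for RNA interference against PRAME, a repressor of retinoic acid signaling. Both were, per the methods of the study, stable transfectants selected with blasticidin, and both vectors carry a green fluorescent protein. The comparison asks which genes differ after suppression of PRAME. The number of clones in each culture is not given in the sources used here.

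Most initiation factors differed little between PRAME knock-down and control cells. Of the 44 genes measured, EIF2B3 was lower by at least 1.5-fold and 0 genes were higher by at least 1.5-fold. These counts depended on the processing. Over the 8 alternatives the number of lower genes was between 0 and 3, and that of higher genes between 0 and 2. The 0 lower genes came with 64 added to the signals, where 3.93% of all genes were lower. The 3 lower and 2 higher genes came without the probe sets ending in _s_at, _x_at or _a_at. That setting measured 37 initiation factors, and 5.92% of all genes were lower and 8.05% higher. Without these changes, 5.42% of all 11794 genes measured were lower and 7.54% were higher by this threshold. The median log2 ratio of knock-down over control cells was 0.022 for the initiation factors and -0.0069 for all genes. A log2 ratio below 0 was found for 21 of the 44 initiation factors and for 51.0% of all genes. The split moved with the scaling, as 14 genes were below 0 without centering (45.5% of all genes), 15 after quantile normalization (48.2%) and 16 after subtraction of a loess curve (48.6%). It also differed by signal. With the centered values and a mean signal of at least 1000, 18 of 39 initiation factors and 3079 of 5167 genes were below 0. The medians in this range were 0.042 for the initiation factors and -0.064 for all genes. Because each condition is a single array, nothing was tested, and the spread between cultures is not known.

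The values are MAS5 signals, a background-corrected brightness for each probe set, which the authors had scaled to a mean of 500.1 without the highest and lowest 2% on both arrays. Log2 ratios were centered on the median of all probe sets above a signal filter of 97.7 (the median of all probe sets), so that a log2 ratio of 0 means no difference from the typical probe set. A gene is described by its probe set with the highest signal. The filter left 105 of the 120 probe sets and 44 of the 47 genes. The genes below it were EIF3C, EIF4A2 and EIF1AY, the Y-linked copy of eIF1A, whose level is not given here. The probe sets of EIF4A1, EIF4EBP3 and EIF3CL, further ones of EIF3C and EIF4A2, and 1 of EIF5 are annotated with several symbols and were not used (10 probe sets). The PRAME probe set had a signal of 2115 in control and 1251 in knock-down cells. Of 6 marker genes of Hodgkin lymphoma cells (TNFRSF8, IRF4, CCL17, TRAF1, FSCN1 and CD40), 6 were above the filter. This was the case for 1 of 3 B cell genes, 0 of 3 T cell genes, 0 of 3 monocyte genes and 1 of 3 epithelial genes, which was CDH1 with signals of 752 and 588. The sample labels name L-428 cells, while the general series text mentions L-540 cells.

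Initiation in human cells starts with a small ribosomal subunit that carries eIF1, eIF1A, the large eIF3 complex, eIF5 and the ternary complex of eIF2, GTP and initiator tRNA. The eIF4F complex (the cap-binding eIF4E, the scaffold eIF4G and the helicase eIF4A) brings in the capped mRNA, and after scanning to the start codon eIF5 and eIF5B promote GTP hydrolysis and joining of the large subunit. The pathway is controlled mainly at the recycling of eIF2 by its exchange factor eIF2B, which phosphorylated eIF2 alpha blocks, and at the access of eIF4G to eIF4E, which the 4E-binding proteins block until mTOR phosphorylates them.

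Many mRNAs of the translation machinery start with a C followed by a run of pyrimidines, known as a terminal oligopyrimidine (TOP) start, through which mTOR controls their translation. The RefSeq start site table of GRCh38.p14 lists 35 of the measured protein-coding initiation factor genes. Of these, 8 genes have a start site with C as the first transcribed base and C or T in the next 4 bases. Their windows are shown 5′ to 3′, from 15 bases before the start to 20 bases after it, because this feature was not used to choose the genes. Capitals mark the first transcribed base and the pyrimidines that follow it.
EIF2S3 (chrX:24054941-24054975, plus strand): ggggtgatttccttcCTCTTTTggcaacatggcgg
EIF2A (chr3:150546772-150546806, plus strand): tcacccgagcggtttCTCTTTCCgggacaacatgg
EIF2D (chr1:206612446-206612480, minus strand): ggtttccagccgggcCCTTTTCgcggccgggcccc
EIF3D (chr22:36529147-36529181, minus strand): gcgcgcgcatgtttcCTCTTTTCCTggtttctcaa
EIF3F (chr11:7987322-7987356, plus strand): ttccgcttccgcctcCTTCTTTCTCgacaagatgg
EIF3K (chr19:38619173-38619207, plus strand): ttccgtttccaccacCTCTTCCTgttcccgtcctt
EIF3M (chr11:32583816-32583850, plus strand): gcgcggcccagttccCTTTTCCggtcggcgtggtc
EIF4B (chr12:53006441-53006475, plus strand): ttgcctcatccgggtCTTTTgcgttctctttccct

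The windows of EIF2B3, the gene with the lowest log2 ratio, and of EIF5, the gene with the highest rank among probe sets of like signal, are shown for comparison. The first of the start sites listed for EIF5 is given. Their listed start sites do not begin with these letters.
EIF2B3 (chr1:44986576-44986610, minus strand): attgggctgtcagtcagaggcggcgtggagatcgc
EIF5 (chr14:103334222-103334256, plus strand): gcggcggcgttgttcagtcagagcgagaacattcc

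The start was found in 22.9% of the 35 initiation factor genes, in 7.11% of the 9602 measured genes with a listed start site, in 4.07% of all 35116 listed start sites and in 74.5% of 47 measured ribosomal protein genes. No start site was used for EIF2S2, EIF3A, EIF3E, EIF3G, EIF3H, EIF3L and EIF4EBP1. Of these, EIF3E, EIF3H and EIF4EBP1 lie on chromosome 8, which was left out, so their starts were not examined. The 8 initiation factors with the start had a median log2 ratio of 0.11, between -0.30 for EIF2S3 and 0.29 for EIF3F, and 6 of them were above 0. The 27 without it had a median of -0.0082. Both ranges overlapped widely, since the genes without the start lay between -0.66 and 0.48. Among all measured genes the medians were -0.0022 with the start (683 genes, ribosomal protein genes included) and -0.018 without it (8919 genes). With a mean signal of at least 1000 they were -0.020 with the start (358 genes) and -0.072 without it (4030 genes). The E-box CACGTG, a palindrome that the MYC family binds, occurred in the 300 bases around the start (250 before and 50 after) in 10 of the 35 genes (28.6%) and in 12.9% of the measured genes. Median log2 ratios were 0.083 for these 10 genes and -0.0082 for the other 25. A match to these letters is a description of the sequence and does not show a bound factor.

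**Figure D1:**
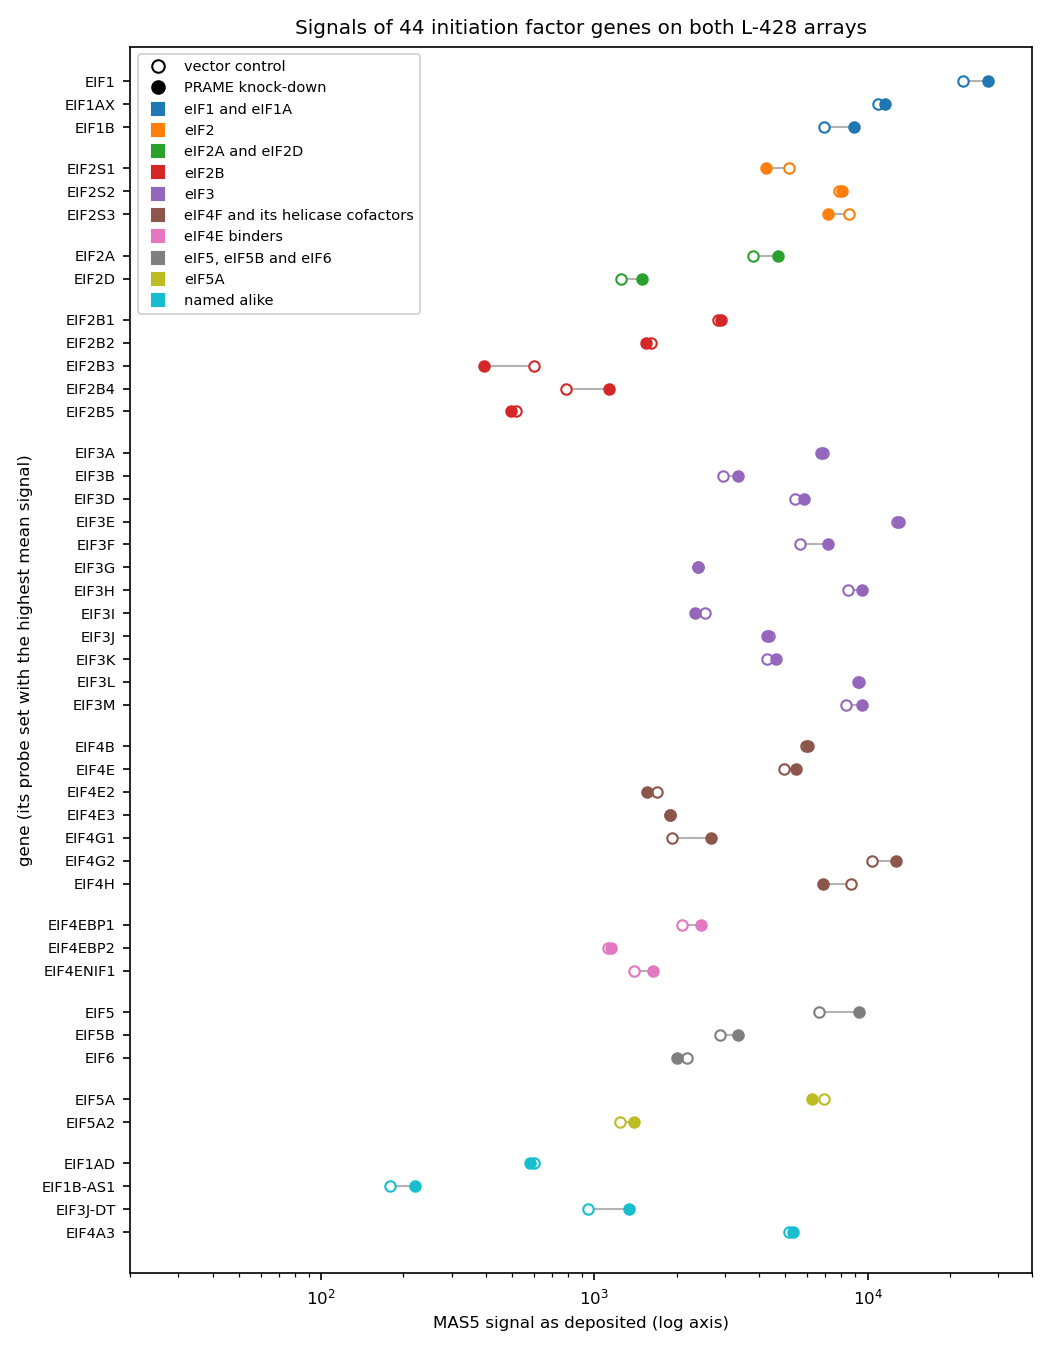
MAS5 signals (log axis) of the 44 measured initiation factor genes in control cells (open points) and PRAME knock-down cells (filled points), 1 array each, colored by factor group; the group named alike holds genes that share the symbol but not the function. For most genes both points lie close together, and the widest gaps are those of EIF2B3 (603 and 395) and EIF2B4 (787 and 1129).

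In their brightest probe sets, the factors of start codon selection were not lower. EIF1, which keeps the small subunit scanning until the correct codon is found, had signals of 22415 in control and 27586 in knock-down cells (log2 ratio 0.25). Its close paralog EIF1B had 6950 and 8888 (log2 ratio 0.31), with 93.9% of the 1000 probe sets nearest in signal having a lower log2 ratio. The X-linked eIF1A gene, EIF1AX, had nearly equal signals of 10897 and 11571 (log2 ratio 0.042) in its brightest probe set, but 8364 and 6729 (log2 ratio -0.36) in the next, 201018_at. The value of EIF1 stands beside a general pattern of very bright probe sets. The median log2 ratio was 0.11 for the 287 genes with a mean signal of at least 10000. Quantile normalization, which gives both arrays the same distribution of signals, brought EIF1 to 0.042.

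The tRNA carriers went in both directions. Within eIF2 itself, the alpha subunit EIF2S1, the target of the stress kinases, had signals of 5169 in control and 4253 in knock-down cells (log2 ratio -0.33). The GTP- and tRNA-binding gamma subunit EIF2S3 had 8547 and 7142 (log2 ratio -0.30), whereas the beta subunit EIF2S2 had 7888 and 8068 (log2 ratio -0.012). Hence alpha and gamma were lower by 1.25-fold and 1.23-fold and beta was level in these probe sets. The dimmer probe sets of alpha (-0.11 and -0.017) and gamma (-0.028 and 0.096) were closer to 0, so that the difference of either subunit rested on its brightest probe set. The dimmer probe set of beta, 208725_at, was lower, with signals of 186 and 61.8 (log2 ratio -1.64). The single-chain factors that can deliver tRNA without eIF2 were both above 0. EIF2A had signals of 3821 and 4681 (log2 ratio 0.25) and EIF2D, which also acts in ribosome recycling, had 1253 and 1497 (log2 ratio 0.21). All 5 differences were below 1.5-fold in the brightest probe sets.

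In the brightest probe sets, the 5 subunits of the exchange factor eIF2B had an SD of 0.40, close to the 0.41 of all genes. The SD between the 12 measured subunits of eIF3 was 0.13. Most eIF3 subunits had higher signals than most eIF2B subunits, and bright probe sets varied less (SD of 0.27 in the brightest of 8 signal bins). EIF2B3, the gamma subunit of the catalytic subcomplex, had a signal of 603 in control and 395 in knock-down cells. This was 1.58-fold lower (log2 ratio -0.66), and 5.3% of the probe sets nearest in signal had a lower ratio. It was measured by 1 probe set only, and after adding 64 to both signals the log2 ratio was -0.58, just short of 1.5-fold. EIF2B4, the delta subunit of the regulatory part, was at the other end, with 787 and 1129 (1.39-fold higher, log2 ratio 0.48) for 209429_x_at. Its other probe set, 215482_s_at, had signals of 807 and 835 (log2 ratio 0.0029), so that this difference rested on 1 of 2 probe sets. The remaining subunits were close to 0. The log2 ratio was -0.017 for the alpha subunit EIF2B1 (signals of 2841 and 2898), -0.098 for the beta subunit EIF2B2 (1607 and 1549) and -0.11 for the catalytic epsilon subunit EIF2B5 (514 and 493).

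The subunits of eIF3, the scaffold on which the other factors assemble, stayed close together. Their log2 ratios lay between -0.16 for EIF3I and 0.29 for EIF3F, with a median of 0.027, and 6 of 12 were below 0. EIF3F had a signal of 5660 in control and 7151 in knock-down cells. Its second probe set, 230479_at, gave 220 and 282 (log2 ratio 0.31), which is 0.021 apart from the brighter one. EIF3I had signals of 2542 and 2344. The large core subunits EIF3A (6843 and 6780, log2 ratio -0.059) and EIF3B (2950 and 3346, log2 ratio 0.14) and the subunit EIF3E (12804 and 13077, log2 ratio -0.015) were all close to 0. EIF3D, a subunit that can bind the cap, had 5403 and 5846 (log2 ratio 0.069). EIF3H (0.13), EIF3M (0.15) and EIF3K (0.068) were slightly above 0. EIF3G (-0.042), EIF3J (-0.064) and EIF3L (-0.063) were slightly below 0. Dimmer probe sets of EIF3M (202232_s_at, 7440 and 6497, log2 ratio -0.24) and EIF3J (208264_s_at, 1593 and 1136, log2 ratio -0.53) were lower than the brightest ones. In the brightest probe sets, no subunit was apart from the others by 1.5-fold.

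Within eIF4F and its helicase cofactors, both measured scaffold genes were above 0 and the cofactor EIF4H was below 0. EIF4G1, the main scaffold, had a signal of 1926 in control and 2662 in knock-down cells (1.34-fold higher, log2 ratio 0.42). A second EIF4G1 probe set, 208624_s_at, was level with 582 and 599 (log2 ratio -0.0054). EIF4G2, a scaffold homolog that does not bind eIF4E, had 10389 and 12669 (log2 ratio 0.24). EIF4H, which stimulates the helicase, had 8732 and 6875 (1.31-fold lower, log2 ratio -0.39), and 5.9% of the probe sets nearest in signal had a lower ratio. The other cofactor, EIF4B, had nearly equal signals of 5931 and 6035 (log2 ratio -0.020), as in its 2 other probe sets (0.047 and 0.066).

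The cap-binding proteins and the proteins that hold them back were close to level in their brightest probe sets. EIF4E had signals of 4965 and 5480 (log2 ratio 0.097), its homolog EIF4E2, which acts in repression, 1695 and 1563 (log2 ratio -0.16), and EIF4E3 1886 and 1888 (log2 ratio -0.043). For EIF4E3 all 4 probe sets were below 0, down to -0.33 for 225939_at. Dimmer probe sets of EIF4E2 lay between -0.64 (209393_s_at) and 0.19 (226734_at), and those of EIF4E between -0.56 (201436_at) and 0.35 (242674_at). Of the repressors, the mTOR substrate EIF4EBP1 had 2101 and 2460 (log2 ratio 0.18) and EIF4EBP2 1124 and 1154 (log2 ratio -0.0082). EIF4ENIF1, which carries eIF4E into the nucleus and into processing bodies, had 1393 and 1637 (log2 ratio 0.19). The 3 eIF4E binders thus had a median log2 ratio of 0.18, and the 3 cap-binding proteins one of -0.043, with overlapping ranges.

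Among the late factors, EIF5, which triggers GTP hydrolysis by eIF2, had the highest ratio relative to probe sets of like signal. Its signal was 6648 in control and 9268 in knock-down cells (1.35-fold higher, log2 ratio 0.43), and 97.6% of the 1000 probe sets nearest in signal had a lower log2 ratio. The probe sets 208706_s_at (0.40) and 208707_at (0.25) were also above 0, whereas 208708_x_at (-0.068) and 208290_s_at (-0.033) were level. EIF5B, the GTPase of subunit joining, had 2877 and 3364 (log2 ratio 0.18), with log2 ratios between -0.16 and 0.39 over 6 probe sets. EIF6, which keeps the large subunit from joining too early, had 2176 and 2004 (log2 ratio -0.16). Chromosome 20, which carries EIF6 and EIF2S2 (log2 ratio -0.012), had a median log2 ratio of -0.17 over 327 measured genes. Whether this bears on either gene was not tested.

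The paralogs EIF5A and EIF5A2 lay on opposite sides of 0, both by less than 1.5-fold in their brightest probe sets. They encode factors that carry the modified amino acid hypusine and act mainly in elongation, in spite of the name. EIF5A was below 0 in all 3 probe sets, with signals of 6931 and 6277 (log2 ratio -0.19) for 201123_s_at, 3055 and 2487 (-0.34) for 201122_x_at and 1222 and 1056 (-0.26) for 213753_x_at. EIF5A2 was above 0 in all 3 probe sets. Its signals were 1244 and 1400 (log2 ratio 0.13) for 235296_at, 346 and 475 (0.41) for 235289_at and 347 and 567 (0.66, 1.58-fold higher) for 220198_s_at. The log2 ratios of the probe sets of both genes did not overlap, but 5 of the 6 values were below 1.5-fold. All probe sets lay on one side of 0 in 49.5% of the 5840 genes with several kept probe sets. This share includes genes with fewer than 3 probe sets and so is not matched to EIF5A and EIF5A2. For the brightest probe sets of EIF5A and EIF5A2, 27.7% and 75.1% of the probe sets nearest in signal had a lower log2 ratio. EIF5A has near-identical copies in the genome, and how far its probe sets also detect them was not tested.

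The remaining 4 genes share the symbol but act elsewhere. EIF4A3, the helicase of the exon junction complex in splicing, was level with signals of 5163 and 5333 (log2 ratio 0.0017), and EIF1AD had 603 and 580 (log2 ratio -0.10). EIF3J-DT, a long noncoding RNA divergent from EIF3J, had 950 and 1342 (1.37-fold higher, log2 ratio 0.45), whereas EIF3J itself was at -0.064. The antisense RNA EIF1B-AS1 had low signals of 178 and 220 (log2 ratio 0.26) for the brighter of 2 probe sets and 76.8 and 155 (0.96) for the other, whose control signal was below the filter.

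**Figure D2:**
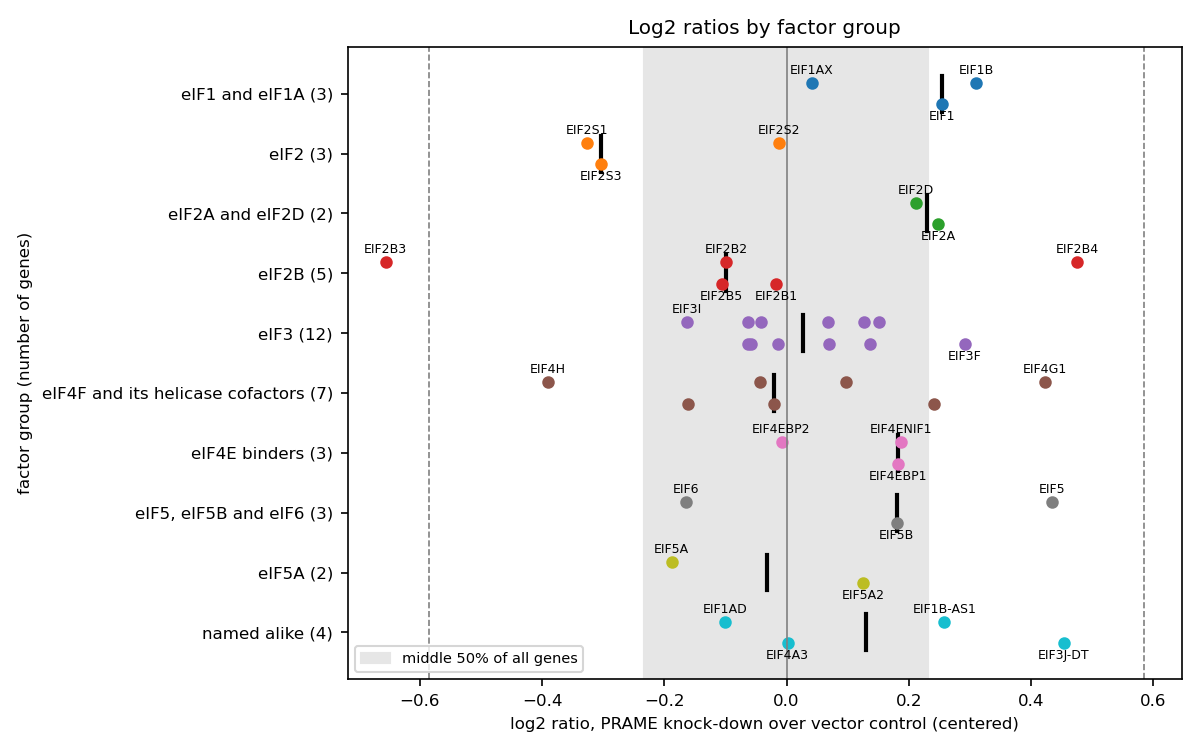
Log2 ratio of PRAME knock-down over control (x axis) for the 44 genes by factor group, with the number of genes in brackets, 1 point per gene and a black bar at the median; dashed lines stand at 1.5-fold and the grey band spans the middle 50% of all genes (-0.23 to 0.23). EIF2B3 is the point past a dashed line, and the medians run from -0.30 for eIF2 to 0.25 for eIF1 and eIF1A.

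The 10 factor groups were set side by side. Their median log2 ratios, from low to high, were -0.30 for eIF2, -0.098 for eIF2B, -0.032 for eIF5A, -0.020 for eIF4F with its cofactors, 0.027 for eIF3, 0.13 for the genes named alike, 0.18 for eIF5, eIF5B and eIF6, 0.18 for the eIF4E binders, 0.23 for EIF2A and EIF2D and 0.25 for eIF1 and eIF1A. The medians of eIF4F and eIF5A were above 0 without centering (0.025 and 0.014), after quantile normalization (0.048 and 0.041), with a loess curve over the signal subtracted (0.042 and 0.019), with the filter at the 75th percentile (0.038 and 0.027) and with the median over probe sets (0.047 and 0.078). That of eIF5A was also above 0 without the probe sets ending in _s_at, _x_at or _a_at (0.13), and that of eIF3 was below 0 without a filter (-0.026) and with the median over probe sets (-0.021). Under all 8 alternatives, eIF2 and eIF2B stayed below 0, and EIF2A with EIF2D, the eIF4E binders and the group of eIF5, eIF5B and eIF6 stayed above 0. The ranges of the genes overlapped in 40 of the 45 pairs of groups. Those that did not were eIF2 against eIF1 and eIF1A, against EIF2A and EIF2D and against the eIF4E binders, and EIF2A and EIF2D against the eIF4E binders and against eIF5A. Each of these groups holds only 2 or 3 genes, so that 1 gene can decide an overlap. Without the probe sets whose names end in _s_at, _x_at or _a_at, which may detect several transcripts, eIF1 and eIF1A had a median of -0.36. The place of this group in the order therefore depended on the choice of probe set.

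**Figure D3:**
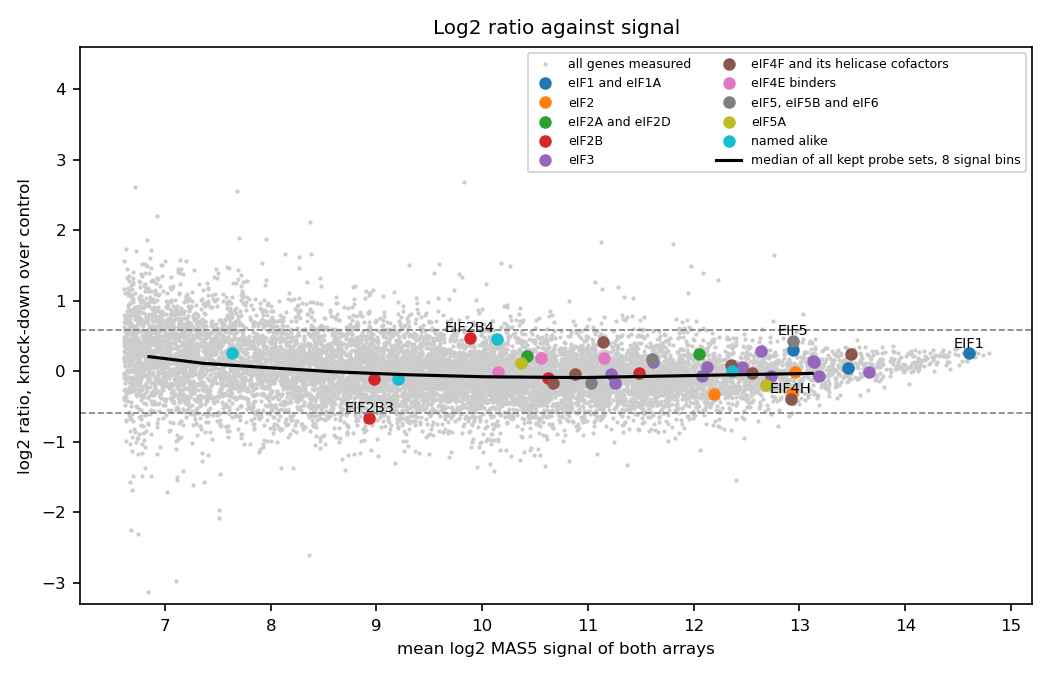
Log2 ratio (y axis) plotted over the log2 MAS5 signal averaged on both arrays (x axis) for all genes (grey) and the initiation factors (colored by group), with dashed lines at 1.5-fold and the median of all kept probe sets in 8 signal bins (black line). The initiation factors lie mostly at high signals, and 26 of 44 fall in the bin with the highest signals, where the SD of the log2 ratios of all kept probe sets was lowest (0.27).

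Initiation factors are bright genes, and bright genes differed less on these arrays. The SD of the log2 ratios was 0.23 for the initiation factors and 0.41 for all genes. In the range with a mean signal of at least 1000 it was 0.20 for 39 initiation factors and 0.31 for 5167 genes. In this range 0 of 39 initiation factors were past 1.5-fold in either direction, compared with 6.31% of the 5167 genes. Set against the 1000 probe sets nearest in signal, 22 of the 44 genes lay in the middle 50%, 2 had fewer than 10% of them below (EIF2B3 and EIF4H) and 6 had more than 90% below. The latter were EIF5, EIF2B4, EIF4G1, EIF3J-DT, EIF1B and EIF3F. By construction, about 10% of all kept probe sets lie at each of these ends.

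**Figure D4:**
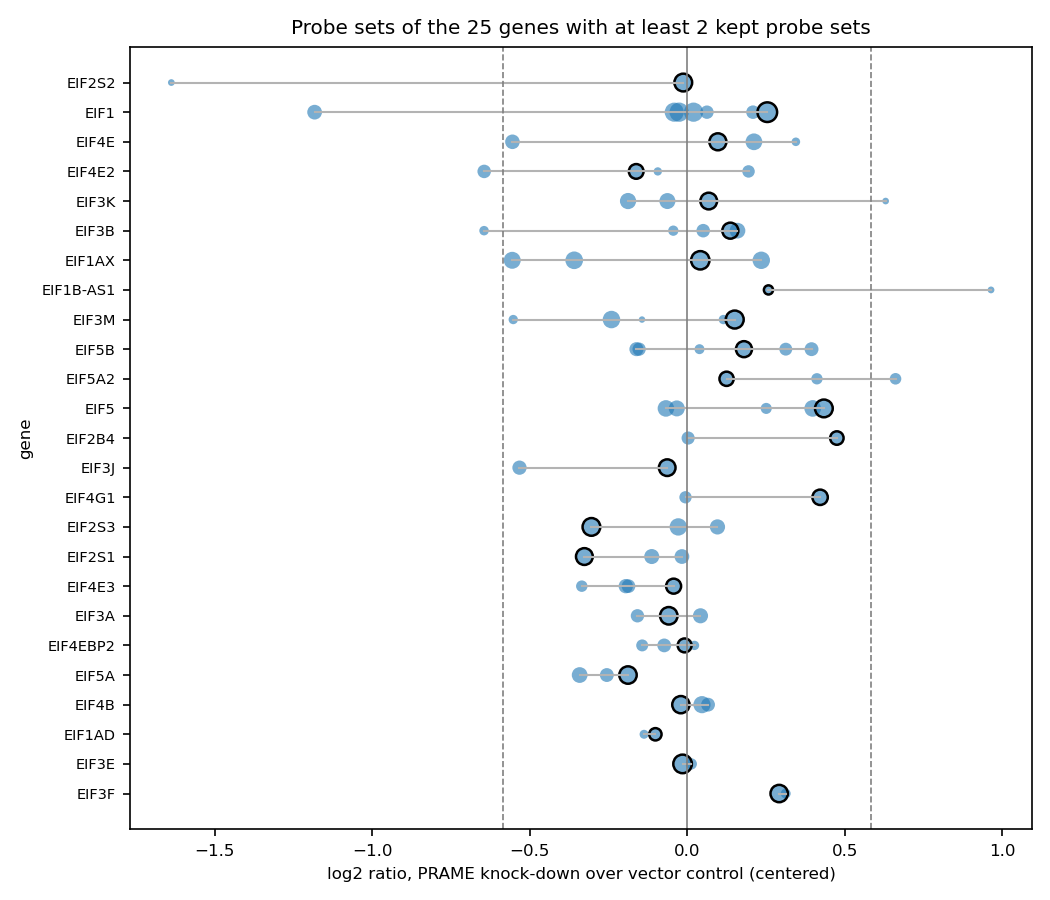
Log2 ratio of every kept probe set (x axis) for the 25 initiation factor genes with at least 2 kept probe sets, ordered by range; the point size grows with the signal, black circles mark the probe set used for the gene and dashed lines stand at 1.5-fold. The widest ranges, 1.63 for EIF2S2 and 1.44 for EIF1, come from 1 probe set each, while those of EIF3F, EIF3E and EIF1AD are below 0.04.

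Several genes were level in their bright probe sets and lower in a single dimmer one. Of the 105 kept probe sets, 5 were lower and 3 higher by at least 1.5-fold, compared with 6.54% and 7.38% of 22379 probe sets. The signals of 208725_at, 1 of 2 EIF2S2 probe sets, were 186 in control and 61.8 in knock-down cells (log2 ratio -1.64), although 208726_s_at was level. Among 3104 further genes measured by 2 kept probe sets, 99.6% had a smaller range. The signal of 208725_at in the knock-down cells was below the filter, and with an offset of 64 the log2 ratio was -1.03.

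For EIF1, the probe set 212225_at gave 2476 and 1125 (2.27-fold lower, log2 ratio -1.18), whereas the other 6 probe sets lay between -0.041 and 0.25. Both signals are well above the filter, and with the offset the log2 ratio was -1.13. Among 51 further genes measured by 7 kept probe sets, 92.2% had a smaller range than EIF1 (1.44). The remaining probe sets lower by 1.5-fold belonged to EIF2B3, to EIF3B (236274_at, signals of 270 and 178) and to EIF4E2 (209393_s_at, signals of 1177 and 777). Those higher by 1.5-fold belonged to EIF5A2, EIF1B-AS1 and EIF3K (236605_at, signals of 83.9 and 134). For EIF4E, 201436_at had signals of 1853 and 1301 (log2 ratio -0.56), in contrast to 0.21 for 201437_s_at and 0.35 for 242674_at. For EIF1AX, 201017_at had 6160 and 4324 (log2 ratio -0.56) and 201016_at had 6051 and 7348 (0.24).

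The spread between probe sets was similar for other genes. The pooled SD between the probe sets of a gene was 0.33 for the 25 initiation factor genes with several kept probe sets and also 0.33 for the 5840 genes in all. All probe sets lay on one side of 0 in 10 of the 25 genes (40%) and in 49.5% of the 5840 genes. These shares depend on the number of probe sets per gene, which was not matched here. Of the 44 initiation factors, 6 had a log2 ratio farther from 0 than this SD (EIF2B3, EIF2B4, EIF3J-DT, EIF4G1, EIF4H and EIF5). The share of all genes past this value was not counted, so the count alone does not set these genes apart. The log2 ratios of all genes had an SD of 0.41, compared with 0.23 for the initiation factors. The spread between probe sets does not measure the spread between cultures.

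Other genes of the translation pathway were described by the same thresholds. The eIF2 kinases, the eIF2 alpha phosphatase subunits and related regulators had 0 of 10 genes past 1.5-fold, with a median log2 ratio of -0.072. The shares of all genes past 1.5-fold (5.42% lower and 7.54% higher) are the background for these short lists, in which 1 gene or none past it is close to that share. The phosphatase subunit PPP1R15B was at 0.36 (signals of 4506 and 5976) and PPP1R15A at -0.21. The RNA-activated kinase EIF2AK2 was at -0.32 and the heme-regulated kinase EIF2AK1 at -0.18. In the list of mTOR and MNK genes (14 genes, median -0.13), PDCD4, an inhibitor of the helicase eIF4A, was lower by 1.51-fold with signals of 584 and 400. The S6 kinases RPS6KB1 (-0.45) and RPS6KB2 (-0.49) were below 0, and MKNK2, which phosphorylates eIF4E, was at 0.41. The second probe sets went the other way for MKNK2 (-0.47) and PPP1R15A (0.28), as did 204211_x_at for EIF2AK2 (0.15), whereas all 3 probe sets of RPS6KB1 were below 0. PDCD4, RPS6KB2 and PPP1R15B were measured by 1 kept probe set each.

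The largest difference of these lists was found for MCTS1, which with DENR forms a recycling factor related to eIF2D. Its signal was 2765 in control and 1177 in knock-down cells (2.42-fold lower) for 218163_at, but 427 and 391 (log2 ratio -0.17) for 230235_at. It was the gene past 1.5-fold among 13 genes of mRNA recruitment and recycling (median 0.0025), of which CYFIP1 (-0.53), the helicase DHX29 (-0.43) and PAIP2 (-0.32) came next. Of 11 genes of elongation, termination and hypusine synthesis (median 0.0089), the release factor ETF1 was lower in both probe sets, with signals of 4946 and 3206 for 201574_at (1.59-fold lower). EEF1A2 was higher by 1.73-fold (474 and 848). EEF1D (-0.46) and the kinase of elongation factor 2, EEF2K (-0.41), were below 1.5-fold. Further probe sets of DHX29 (0.67) and EEF2K (0.29) were above 0, and 3 of the 4 probe sets of EEF1D were close to 0 (-0.096 to 0.088). By their brightest probe sets, the 8 mitochondrial translation factors were all within 1.5-fold (median -0.012). The lowest was MTIF3, a mitochondrial initiation factor, at -0.52. MRRF (0.21), GFM1 (-0.20) and TSFM (-0.12) were closer to 0. The 5 probe sets of GFM1 lay between -0.58 (232296_s_at) and 0.049 (225158_at). CYFIP1, EEF1A2, MTIF3 and MRRF were measured by 1 kept probe set each.

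Cytosolic ribosomal proteins had a median log2 ratio of 0.20, and 51 of 53 measured genes were above 0, compared with 5782 of all 11794 genes. Most of them are very bright. With a mean signal of at least 10000, 48 of 49 ribosomal protein genes (median 0.20) and 175 of the 238 other genes (median 0.086) were above 0. The highest was RPL14 with signals of 6212 and 11254 (1.76-fold higher), although its 3 probe sets ranged from -0.71 to 0.81. RPL36A (0.35, with low signals of 93.0 and 122), RPL10A (0.32) and RPL41 (0.32) followed. This shift depended on the scaling, since quantile normalization left a median of 0.023 with 32 of 53 genes above 0, and subtraction of the trend with signal left 0.12 with 46 above 0. Ribosomal protein genes with the TOP start (35 genes, median 0.19) and those without it (12 genes, median 0.21) had close medians. Of the initiation factors, 23 of 44 were above 0. The difference between both lists was not tested.

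**Figure D5:**
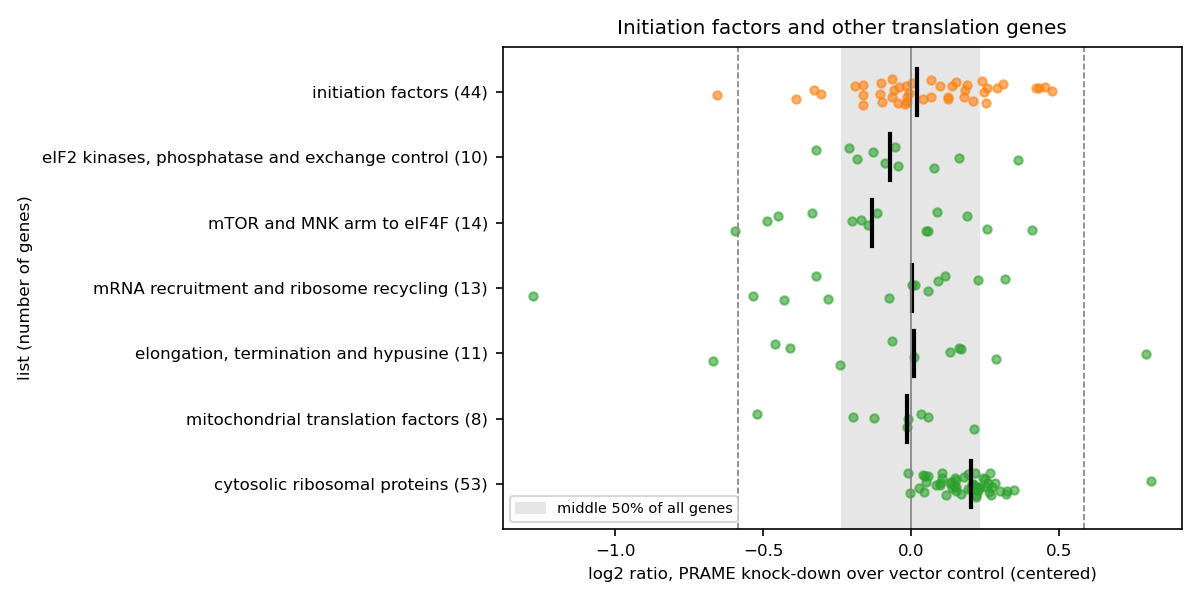
Log2 ratio (x axis) of the 44 initiation factors (orange) and of 6 other lists of translation genes (green), 1 point per gene, number of genes in brackets and black bars at the medians; dashed lines stand at 1.5-fold and the grey band spans the middle 50% of all genes. The initiation factors are spread around 0.022, the ribosomal proteins around 0.20, and the lowest point is MCTS1 at -1.28.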

How the data were processed

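RNA from L-428 cells with the control vector and with the PRAME knock-down vector was hybridized by the authors to 1 Affymetrix HG_U133PLUS2.0 array each. Per the submitters' processing notes, the deposited signal intensities were made with MAS5 in Affymetrix Expression Console 1.1. They are on a linear scale, with 54675 probe sets, of which 62 controls were left out here. Detection calls were not used. The sources used here give no array dates.

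Log2 values were taken with no pseudocount. The filter on mean log2 signals was their median over all probe sets and left 27307, and log2 ratios were centered by subtracting 0.045. Symbols came from the platform annotation (41097 probe sets with 1 symbol, 1801 with several, 11777 with none), and chromosomes and start site sequences from RefSeq tables of GRCh38.p14. For each gene, the brightest kept probe set stood for the gene. Differences were described by folds of 1.5 and by the share of the 1000 kept probe sets nearest in mean log2 signal with a lower log2 ratio. Genes named are those past 1.5-fold, the lowest and highest of each group, and up to 4 genes of each other list, and further members were named after their values were seen. The members and lists were chosen with earlier results of these data known. Start site features were chosen after the files were read.

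The alternatives were no centering, quantile normalization, a loess curve (span 0.4), 64 added to each signal, all probe sets, only those above the 75th percentile, the gene median over probe sets and the omission of probe sets ending in _s_at, _x_at or _a_at. The number of arrays limits the precision. The scripts were tested on simulated data. Python 3.11.15, numpy 2.4.6, pandas 2.3.3, scipy 1.17.1, statsmodels 0.14.6 and matplotlib 3.10.9 were used.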

Additional observations from a re-analysis of the deposited data

How the results depend on the processing

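No paired analysis was possible because each condition has 1 array. Values were called moved where they changed by more than the pooled SD between probe sets of a gene (divided by the square root of the number of genes for medians) or, for counts, by more than 1.5 times. Of 344 values of single genes under the 8 alternatives, 334 changed by less and 10 by more, while 26 of 44 genes kept one sign throughout. EIF2B3 lay between -0.75 and -0.58. The median of the initiation factors was -0.073 without a filter, where the centering runs over all probe sets. The number of lower genes was 0 with the offset of 64 and 2 with the median over probe sets (EIF2B3 and EIF2S2). Without the endings _s_at, _x_at and _a_at it was 3 of 37 measured genes (EIF1 in addition). The number of higher genes was 1 (EIF1B-AS1) and 2 (with EIF3K) under the latter 2 settings. The median of eIF1 and eIF1A was 0.042 after quantile normalization, 0.020 with the median over probe sets and -0.36 without these endings.

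Among the other translation lists, whose alternatives were added after the data were seen, the median without a filter was -0.23 for the mTOR and MNK genes, -0.092 for recruitment and recycling and 0.11 for ribosomal proteins. With the filter at the 75th percentile it was 0.11 for the mTOR and MNK genes and 0.26 for ribosomal proteins. Without the endings it was -0.27 for recruitment and recycling, -0.31 for elongation and termination and 0.12 for ribosomal proteins, of which 17 were above 0 because fewer genes were measured. The median over probe sets gave -0.13 for mitochondrial factors. Ribosomal proteins had medians of 0.023 after quantile normalization, with 32 above 0, and 0.12 after the loess curve. The cause was not tested where none is named. Signals near the filter limit the ratios of dim probe sets such as 208725_at.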
